A study of Mus musculus with 14 samples.

Results

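Oxidative phosphorylation is the chain of reactions by which mitochondria turn nutrients into ATP, and most of its subunits are encoded in the nucleus. The members described here are the nuclear genes whose symbols begin with Nduf, Uqcr, Cox4 to Cox8 or Atp5, together with Sdha, Sdhb, Sdhc and Sdhd. They number 81 of the 10303 named genes in the deposited table, with 40 in complex I, 4 in complex II, 8 in complex III, 13 in complex IV and 16 in complex V. Assignment to a complex followed the known role of the gene and not the symbol alone, so Ndufa4, a subunit of cytochrome c oxidase, was counted in complex IV, and Atp5sl, an assembly factor of complex I in human cells, in complex I. Of the members, 72 encode structural subunits, and the others are assembly factors, a supercomplex factor, a muscle isoform or an accessory factor.

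The cells were natural killer T (NKT) cells, T lymphocytes that recognise lipid antigens, isolated by sorting thymi of young wild-type males. The mice had been given dexamethasone, a synthetic glucocorticoid, into the peritoneum at 200 ug per 10 g body weight and killed 18 h (5 libraries) or 3 d (4 libraries) later, or 8% ethanol as vehicle and killed 3 d later (5 libraries, age-matched). A vehicle group of 18 h was not analysed here, and both dexamethasone groups are compared with the same vehicle libraries. Bulk libraries were made by MARS-seq, which reads the 3′ ends of polyadenylated transcripts, and the labels do not say whether a replicate is 1 mouse or a pool, so a p-value here reflects how far these samples spread, which may be technical.

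Electrons enter the chain at complex I (NADH dehydrogenase) or complex II (succinate dehydrogenase, also a tricarboxylic acid cycle enzyme), pass through ubiquinone to complex III (the cytochrome bc1 complex) and through cytochrome c to complex IV (cytochrome c oxidase), which reduces oxygen. Proton pumping by complexes I, III and IV drives complex V, the ATP synthase, in which protons turn a ring of c subunits and the catalytic F1 head makes ATP. Complex II is the only one encoded wholly in the nucleus. In T cells the respiratory chain is known to sustain quiescent and memory cells and to expand on activation.

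Library totals ranged from 977037 to 2203273 counts. All 10 listed NKT and T cell markers were detected. Their summed CPM (counts per 1000000 counts of the genes tested, after TMM scaling) was 3081 to 3598 in vehicle, 1831 to 2411 at 18 h and 2750 to 3446 at 3 d. Single markers of this list moved differently. Klrb1c read 202 to 236 CPM in vehicle, 15.4 to 72.7 at 18 h and 189.7 to 376 at 3 d. In the same order Zbtb16 read 41.7 to 81.7, 18.8 to 77.3 and 13.95 to 26.55 CPM. Il2rb read 464.5 to 879, 175 to 547 and 830.5 to 1060 CPM, and Gata3 75.55 to 152, 77.8 to 171 and 118.5 to 143 CPM. The marker profile thus differed between the groups compared. Some libraries stood apart. Vehicle replicate 3 was the lowest vehicle library for Atp5g3, Uqcrq and Cox4i1 and the highest for Cox7a2l, Ndufab1, Ndufb4 and Atp5g2, whose values follow. The 18 h replicate 1 had the lowest value of its group for 62 of the 79 members tested. The 18 h replicates 2 and 3 carried 1008 and 648 CPM of Cd8b1, a coreceptor gene of conventional T cells and CD4+CD8+ thymocytes, against 9.43 to 71.2 CPM in all the others. Cd8a was also high in them (182.3 and 113.3 CPM), whereas Dntt, Rag1 and Ptcra were not above their vehicle range. The 8 thymocyte and CD8 T cell markers in the table summed to 247.1 to 489.6 CPM in vehicle. Their sums were 171.1 to 1568 CPM at 18 h and 133 to 169.4 CPM at 3 d, with Rag1 and Ptcra at 0 throughout 3 d. The summed level of the 9 macrophage and dendritic cell markers in the table was 622 to 1253 CPM in vehicle, 384 to 1867 CPM at 18 h and 1804 to 7068 CPM at 3 d, with Apoe at 1365 to 5368 CPM at 3 d. No macrophage marker was at 0 throughout a group.

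At 18 h, 62 of the 79 members tested had a negative log2 fold change against vehicle. Of these 79, 35 fell, 2 rose and 42 did not pass the test, in edgeR's quasi-likelihood test with Benjamini-Hochberg adjustment over all 7965 genes tested and an adjusted p below 0.05. Over all genes tested, 17.3% were called lower and 17.0% higher. The median log2 fold change was -0.36 over the members and 0.01 over all genes tested. Those called lower ranged from -1.31 to -0.36. At least 2-fold falls were called in 5 of the 79 members and in 472 of the 7965 genes tested, a similar share. For 21 members every 18 h library was below every vehicle library, as for 10.3% of all genes tested. Scaling by total counts in place of TMM moved the median of all genes up by 0.14 and called 22 members lower and 3 higher (all genes 956 lower and 1770 higher, against 1381 and 1353). Relative to the median of all genes, the member median was -0.37 under both scalings. A change of scaling shifts all genes about alike, so this difference could hardly change. Without the 18 h replicate 1, 28 members were lower and the median was -0.28, and without the 18 h replicates 2 and 3, 30 were lower and it was -0.38.

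At 3 d, 21 members were lower, 4 were higher and 54 did not pass. The backgrounds over all genes tested were 13.8% lower and 12.1% higher. The median log2 fold change was -0.26 over the members and 0.03 over all genes. In 23 members every 3 d library lay below every vehicle library, as in 12.2% of all genes. Of the members lower at 18 h, 19 were also lower at 3 d, in comparisons that share the vehicle libraries. How many of all genes were lower at both times was not counted. The macrophage and thymocyte marker levels moved with the 3 d group, and their part in these values was not tested. In bulk libraries of sorted cells, fewer cells of a type and less RNA per cell cannot be told apart. Removing each library's trend with GC content and transcript length reduced the member median to -0.10 at 3 d and -0.24 at 18 h, with 18 and 25 members lower and 9 and 6 higher. Relative to the median of all genes, the member median was then -0.128 at 3 d and -0.215 at 18 h. With the trend kept, these differences were -0.287 and -0.37. At 3 d the count of higher members was 9 without vehicle replicate 3 and 2 without vehicle replicate 1.

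**Figure D1:**
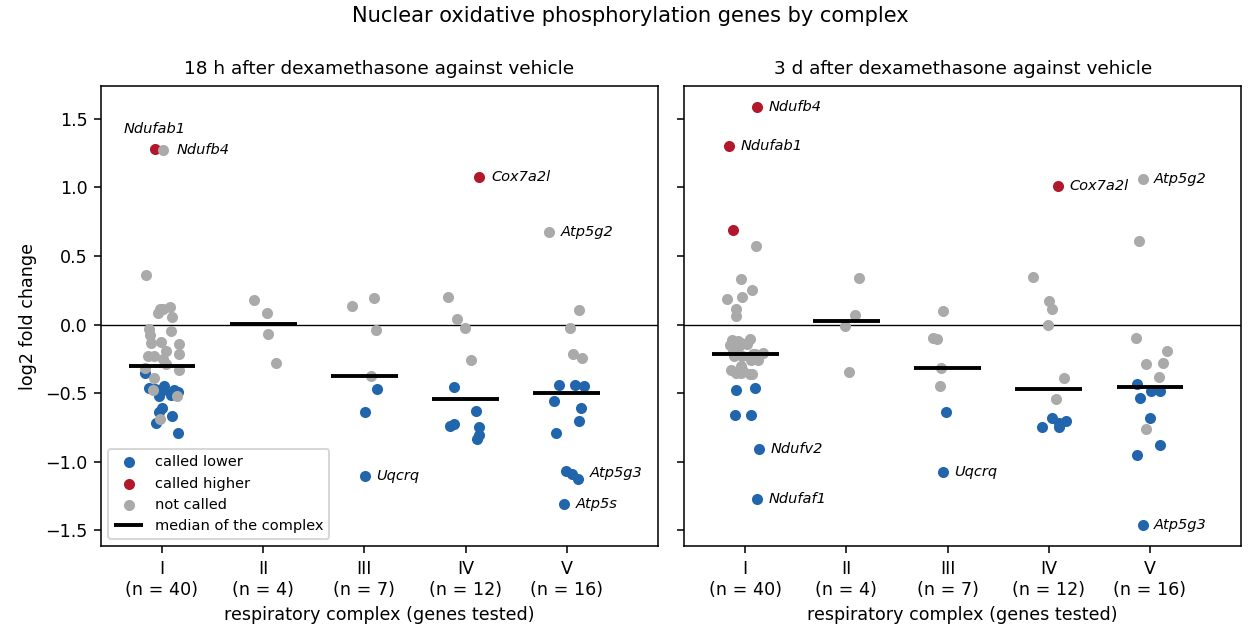
Each point is 1 tested gene, placed by respiratory complex on the x axis, with its log2 fold change against vehicle at 18 h (left) and 3 d (right) on the y axis, and a thick bar marks the median of the complex. Complex V holds 4 of the 5 genes that fell at least 2-fold at 18 h, complex II sits around 0, and Ndufab1, Cox7a2l, Ndufb4 and Atp5g2 lie above the rest of their complexes.

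Member levels were also summed in each library. The summed CPM of all 81 members was 32290 ± 1628 in vehicle (SD, n = 5), 23410 ± 3386 at 18 h (n = 5) and 24070 ± 1675 at 3 d (n = 4), so that the dexamethasone groups held 72.5% and 74.6% of the vehicle mean. Every dexamethasone library (17420 to 26460) was below every vehicle library (29440 to 33330). Complex V was lowest against vehicle, at 61.4% (18 h) and 62.2% (3 d). Complex III stood at 71.8% and 69.0%, complex IV at 73.6% and 76.9%, and complex I at 82.1% and 85.8%. Complex II stayed closest to vehicle, at 93.9% and 96.5%, and its dexamethasone libraries overlapped the vehicle libraries. On this TMM scale, no library of either dexamethasone group reached the lowest vehicle library for complexes I, III, IV and V. Without TMM, all members together made up 2.917% to 3.15% of counts in the vehicle libraries. The shares were 1.925% to 2.643% at 18 h and 2.301% to 2.534% at 3 d. Whether single complexes separate without TMM was not examined. These sums describe the members and carry no test. Genes with more counts weigh more in them.

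**Figure D2:**
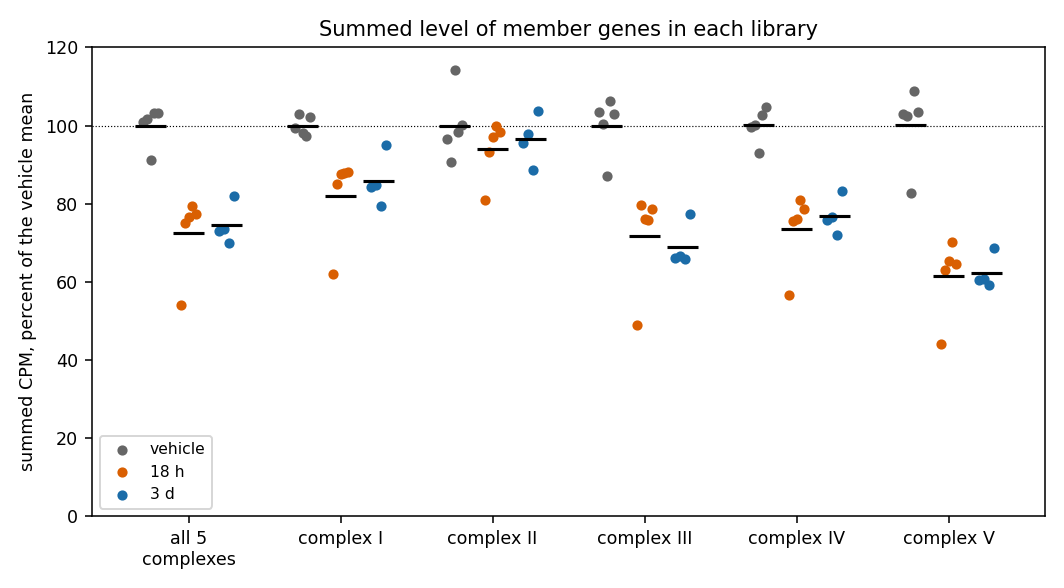
Summed CPM (TMM-scaled) of the member genes of each complex in each library (points), as percent of the vehicle mean, with black bars for the group means. The 18 h replicate 1 is the lowest point of its group in every column. Vehicle replicate 3 is the lowest vehicle point for complexes III, IV and V. Only in complex II do dexamethasone points overlap the vehicle points, whereas the 18 h and 3 d points overlap in every column.

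Complex V is described first, from the c ring outwards. The c ring genes Atp5g1, Atp5g2 and Atp5g3 encode the same mature protein from separate chromosomes with different import sequences. Atp5g3 (chromosome 2, 73908447 to 73911326, mm10) read 2845, 3287, 1852, 3109 and 3078 CPM in vehicle replicates 1 to 5. At 18 h it read 828, 1186, 1544, 1597 and 1328 CPM and at 3 d 959, 983, 773 and 1391 CPM. All dexamethasone libraries were below all vehicle libraries, with vehicle replicate 3 the lowest of its group. Its log2 fold change was -1.13 ± 0.20 (SE) at 18 h, with an adjusted p of 0.00017 by edgeR, and -1.46 ± 0.21 at 3 d, with an adjusted p of 4.81e-05.

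Atp5g1 (chromosome 11, 96068852 to 96075670) read 584, 496, 421, 500.1 and 589 CPM in vehicle and 136, 303, 258, 316 and 199 CPM at 18 h. The 3 d libraries were close together at 269.7, 279.7, 281 and 297 CPM. No library of either group reached the vehicle range, and the 18 h replicate 1 was again the lowest. Atp5g1 changed by -1.09 ± 0.18 on the log2 scale at 18 h (adjusted p = 9.94e-05 by edgeR) and by -0.88 ± 0.19 at 3 d (adjusted p = 0.00214). Atp5g2 (chromosome 15, 102662864 to 102672352), a gene of few counts here, had means of 17.8 ± 14.4 CPM in vehicle, 29.0 ± 6.88 CPM at 18 h and 38.0 ± 7.75 CPM at 3 d. It was not called at either time (adjusted p = 0.199 and 0.0658 by edgeR). The vehicle libraries read 4.06, 14.4, 41.7, 18.8 and 10.0 CPM, so that replicate 3 was above all 18 h libraries. Without vehicle replicate 3 it was called higher at both times (1.32 ± 0.32, adjusted p = 0.00259 at 18 h; 1.71 ± 0.33, adjusted p = 0.000536 at 3 d). Atp5g1 and Atp5g2 each have near-identical copies in 2 other annotated genes within their last 300 transcript bases, to which reads can also map.

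The promoter sequences of both falling c ring genes are shown here with those of Cox6a1, a complex IV subunit gene that fell, and Cox7a2l, the member with the smallest adjusted p among those that rose. Each line gives the 250 bases before the RefSeq transcription start (GRCm38.p6, minus strand for all of them, 5′ to 3′). The Cox7a2l window lies wholly inside the span given below for that gene, so it is not sequence upstream of the whole gene. Capitals mark a match to a motif of the factors NRF1, GABPA (ETS family) or YY1, which are known to regulate respiratory genes, or to the glucocorticoid response element.
Atp5g1 at chr11:96075632-96075881: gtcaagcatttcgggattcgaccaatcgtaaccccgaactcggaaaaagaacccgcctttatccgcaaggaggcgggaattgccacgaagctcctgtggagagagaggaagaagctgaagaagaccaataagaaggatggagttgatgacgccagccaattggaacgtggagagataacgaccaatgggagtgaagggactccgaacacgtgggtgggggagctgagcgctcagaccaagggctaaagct
Atp5g3 at chr2:73911327-73911576: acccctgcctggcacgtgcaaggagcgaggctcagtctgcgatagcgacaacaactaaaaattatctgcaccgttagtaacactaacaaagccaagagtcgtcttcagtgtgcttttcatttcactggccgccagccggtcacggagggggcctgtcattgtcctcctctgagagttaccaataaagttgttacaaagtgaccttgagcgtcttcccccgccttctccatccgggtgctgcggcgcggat
Cox6a1 at chr5:115348959-115349208: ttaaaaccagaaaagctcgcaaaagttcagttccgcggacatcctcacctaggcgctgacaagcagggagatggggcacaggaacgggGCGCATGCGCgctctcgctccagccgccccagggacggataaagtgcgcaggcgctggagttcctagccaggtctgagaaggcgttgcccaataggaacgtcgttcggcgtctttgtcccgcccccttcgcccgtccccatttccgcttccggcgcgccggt
Cox7a2l at chr17:83514334-83514583: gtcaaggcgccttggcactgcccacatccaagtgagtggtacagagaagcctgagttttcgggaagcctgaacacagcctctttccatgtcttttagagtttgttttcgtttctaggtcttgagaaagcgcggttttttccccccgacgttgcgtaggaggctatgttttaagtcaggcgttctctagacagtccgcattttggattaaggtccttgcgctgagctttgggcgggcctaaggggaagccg
Only the Cox6a1 window holds a match, a palindromic NRF1 stretch found on both strands. Promoters of 66 members, 71 in all, were in the table, each from 250 bases before to 50 after a start, and both strands were searched. The NRF1 letters GCGCATGC were in 9 of 71 member promoters (12.7%), in 5.68% of the 7908 promoters of all genes tested and in 2.71% of all 32851 promoters. The YY1 letters AAGATGGCG were in 7 (9.86%), against 3.62% and 1.4%. The ETS letters CCGGAAGT were in 5 (7.04%), against 9.32% and 3.89%. The glucocorticoid response element, searched as AGAACA, 3 bases of any kind and TGTTCT, was in 0 member promoters, in 1 of the 7908 and in 3 of all. This exact string is so rare that its absence says nothing about the members. Matches of different motifs may overlap. Members that fell at 18 h held the NRF1 letters in 4 of 30 cases and members not called in 5 of 33. A match is a string in this window and was not tested as a binding site.

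In the F1 head, 4 of 5 genes were lower at 18 h and 3 of 5 at 3 d (80% and 60%, against 17.3% and 13.8% of all genes). Atp5b, the catalytic beta subunit (chromosome 10, 128083273 to 128090391), read 1009, 1002, 900.0, 1118 and 967 CPM in vehicle. It read 471, 607, 628, 784 and 582 CPM at 18 h and 729, 766, 775 and 686 CPM at 3 d. Every dexamethasone library was below every vehicle library. Its log2 fold changes were -0.70 ± 0.14 (adjusted p = 0.00063 by edgeR) and -0.44 ± 0.15 (adjusted p = 0.0339), and the 3 d call was lost in 12 of 27 alternative fits. Atp5e, the small epsilon subunit, fell from 1490 ± 124 CPM in vehicle to 859.6 ± 214 CPM at 18 h and 927 ± 143 CPM at 3 d (adjusted p = 0.00119 and 0.00875 by edgeR). Atp5a1, the alpha subunit, fell by less (-0.44 ± 0.13 and -0.53 ± 0.14). Atp5d, the delta subunit, fell at 18 h (-0.44 ± 0.12), and Atp5c1, the gamma subunit of the rotor, did not pass at either time (-0.03 ± 0.13 and -0.19 ± 0.14).

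Among the membrane and stalk genes of complex V, Atp5j2, which encodes subunit f (chromosome 5, 145183698 to 145192062), read 1089, 739, 513, 942 and 785 CPM in vehicle. At 18 h it read 194, 440.0, 411, 402 and 492 CPM and at 3 d 379, 377, 474 and 451 CPM. The vehicle values were widely spread, yet the lowest of them lay above every dexamethasone library. Atp5j2 changed by -1.07 ± 0.21 and -0.95 ± 0.23 on the log2 scale (adjusted p = 0.000721 and 0.00463 by edgeR). Atp5k, subunit e, fell at 18 h (-0.61 ± 0.19), and Atp5l, subunit g, did not pass (0.11 ± 0.23 and 0.61 ± 0.24). Atp5l has 12 near-identical copies among other annotated genes. It was called higher at 3 d in 6 of 27 alternative fits, among them the fit without vehicle replicate 3 (0.69 ± 0.26, adjusted p = 0.0435). Atp5j2 has 1 such copy. In the peripheral stalk, which holds the head still, Atp5o fell at both times (-0.55 ± 0.14 and -0.48 ± 0.15), Atp5h at 18 h (-0.45 ± 0.17), and Atp5f1 at 3 d (-0.49 ± 0.15). The 18 h call of Atp5h was lost in 14 of 27 alternative fits and the 3 d call of Atp5o in 6. Atp5j did not pass, and its exons overlap Gabpa on the opposite strand. Atp5s, which encodes coupling factor B, had the largest fall of all members at 18 h, from 17.7 ± 5.11 to 7.03 ± 1.43 CPM (-1.31 ± 0.28, adjusted p = 0.00122 by edgeR), and stood at 10.1 ± 1.85 CPM at 3 d (adjusted p = 0.056). In all, 11 of 16 complex V members were lower at 18 h and 8 at 3 d, with 0 higher by edgeR (2 at an unadjusted p below 0.05 and 1 by DESeq2, all at 3 d). The shares lower were 68.75% and 50%, against 17.3% and 13.8% of all genes, of which 17.0% and 12.1% were higher. Without vehicle replicate 3, Atp5g2 and Atp5l were both called higher at 3 d. The count lower at 18 h was 7 with the GC and length trend removed.

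Complex IV had 7 of 12 tested members lower at 18 h and 5 at 3 d, and 1 higher at each time. The shares lower were 58.3% and 41.7%, against 17.3% and 13.8% of all genes. The 3 d count was 3 without vehicle replicate 1 and 3 without 3 d replicate 2. Cox4i1, the largest nuclear subunit (chromosome 8, 120668222 to 120674207), read 1861, 1935, 1318, 1867 and 1991 CPM in vehicle. It read 993, 1064, 1255, 1239 and 1239 CPM at 18 h and 1016, 1146, 962 and 1155 CPM at 3 d. Vehicle replicate 3 lay just above the highest dexamethasone library and far under the other vehicle libraries. Cox4i1 changed by -0.63 ± 0.14 at 18 h and -0.75 ± 0.15 at 3 d (adjusted p = 0.00165 and 0.00117 by edgeR). Cox6a1, the non-muscle form of subunit 6A (chromosome 5, 115345642 to 115348981), went from 1725, 2243, 1623, 2153 and 2294 CPM in vehicle to 789, 994, 1297, 1353 and 1198 CPM at 18 h. The 3 d libraries held 1218, 1200, 1095 and 1506 CPM of it. Both groups lay wholly below vehicle, with log2 changes of -0.83 ± 0.16 and -0.68 ± 0.17 (adjusted p = 0.000522 and 0.00687). Cox6a1 has 1 near-identical copy, and exons of Cox4i1 overlap Emc8 on the opposite strand.

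Other subunits that sit on the outside of the complex IV core followed in part. Cox6b1, which faces cytochrome c, fell at both times (-0.72 ± 0.19 and -0.70 ± 0.20), as did Cox7a2 (-0.81 ± 0.20 and -0.75 ± 0.21) and Cox7b (-0.75 ± 0.20 and -0.72 ± 0.22). Cox5b, a zinc-binding subunit, fell at 18 h (-0.46 ± 0.15, adjusted p = 0.0186 by edgeR) and did not pass at 3 d (-0.39 ± 0.15, adjusted p = 0.0664). Cox6c fell at 18 h (-0.74 ± 0.24). Cox5a, which pairs with Cox4i1 early in assembly, did not pass at either time (-0.02 ± 0.15 and 0.11 ± 0.16), nor did Cox7c, Cox8a or Ndufa4 (18 h log2 fold changes 0.04, 0.20 and -0.26). The vehicle libraries of Cox5a read 419.7, 415, 687, 433 and 429 CPM, and without replicate 3, the highest, its 18 h value changed sign (0.14 ± 0.13, adjusted p = 0.387). Cox7a1, the muscle form of subunit 7A, was too low to test, at 0 to 5.08 CPM in every library.

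The complex IV gene that rose was Cox7a2l (chromosome 17, 83501918 to 83517330), whose product joins complexes III and IV into supercomplexes. It read 139, 150.0, 284, 169.5 and 174 CPM in vehicle. The 18 h libraries held 431, 496, 345, 343 and 321 CPM and the 3 d libraries 407, 409.7, 369 and 293 CPM. No dexamethasone library fell to the vehicle range, although vehicle replicate 3 came just under the lowest. Its rise was 1.07 ± 0.18 at 18 h, an adjusted p of 0.000142 by edgeR, and 1.01 ± 0.19 at 3 d, an adjusted p of 0.000735. Both calls held in all 27 alternative fits.

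Complex III had 3 of 7 tested members lower at 18 h and 2 at 3 d, and 1 at 18 h with the GC and length trend removed. The shares lower in the main fit were 42.9% and 28.6% of only 7 genes, against 17.3% and 13.8% of all genes. Uqcrq, a small accessory subunit (chromosome 11, 53427922 to 53430831), read 1047, 1020, 695, 1008 and 1072 CPM in vehicle and 215, 450.3, 553, 526 and 503 CPM at 18 h. At 3 d it read 439.8, 407, 437 and 552 CPM. The groups did not overlap, and the 18 h replicate 1 and vehicle replicate 3 were the lowest of their groups. Uqcrq changed by -1.10 ± 0.20 and -1.08 ± 0.21 (adjusted p = 0.000263 and 0.00112 by edgeR). Uqcr10, another small subunit, fell at both times (-0.63 ± 0.16 and -0.64 ± 0.17). Uqcrc1, a core protein of the matrix side, fell at 18 h (-0.47 ± 0.15, adjusted p = 0.0222), a call lost in 7 of 27 alternative fits. The catalytic Rieske iron-sulfur protein gene Uqcrfs1 did not pass, with 221 ± 50.7 CPM in vehicle, 252 ± 24.0 at 18 h and 237 ± 29.5 at 3 d. Uqcrc2, Uqcrh and Uqcr11 did not pass either, and Uqcrb, at a mean of 3.82 CPM in vehicle, was too low to test and has 3 near-identical copies.

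None of the 4 complex II genes was called at either time by edgeR, with 1 lower at an unadjusted p below 0.05 at each time and 1 higher at 3 d. DESeq2 called 1, Sdhb, lower at each time. Sdha, the flavoprotein that oxidises succinate (chromosome 13, 74322254 to 74350280), read 129, 115, 116, 96.0 and 97.9 CPM in vehicle. It read 113, 108, 90.5, 117 and 101 CPM at 18 h and 97.0, 98.6, 119 and 125 CPM at 3 d. The 3 groups overlapped almost fully, and the log2 fold changes were -0.07 ± 0.14 and -0.01 ± 0.15. Sdhb, the iron-sulfur subunit (chromosome 4, 140961203 to 140979193), stood at 394 ± 23.0 CPM in vehicle, 324 ± 47.1 CPM at 18 h and 310.1 ± 11.1 CPM at 3 d. Its dexamethasone libraries were all below its vehicle libraries but the test was not passed (-0.28 ± 0.13, adjusted p = 0.0911; -0.34 ± 0.14, adjusted p = 0.0655, by edgeR). The membrane anchors Sdhc and Sdhd had positive values (0.08 ± 0.15 and 0.18 ± 0.17 at 18 h; 0.34 ± 0.16 and 0.07 ± 0.18 at 3 d) and did not pass. Sdhc was called higher at 3 d in 3 of 27 alternative fits, among them the fit without vehicle replicate 3 (0.50 ± 0.14, adjusted p = 0.00788).

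In complex I, 14 of 40 members were lower and 1 higher at 18 h, and 6 were lower and 3 higher at 3 d. The share lower was 35.0% at 18 h, against 17.3% of all genes tested, and 15.0% at 3 d, near the 13.8% of all genes. The 18 h count was 8 without 18 h replicate 1, 9 without vehicle replicate 4, 9 without vehicle replicate 5 and 7 under total counts, and the 3 d count was 11 with quality weights. Of the 7 nuclear core subunits, which carry the flavin and the iron-sulfur clusters, 3 fell at 18 h (42.9%). Ndufs7, which holds the last cluster before ubiquinone (chromosome 10, 80249121 to 80256794), read 339, 359, 286, 330.1 and 386 CPM in vehicle and 209, 216, 216, 254 and 220.4 CPM at 18 h. At 3 d it read 288, 294, 270.2 and 331 CPM. The 18 h libraries were below all libraries of both other groups, which overlapped each other. Ndufs7 fell at 18 h (-0.61 ± 0.13, adjusted p = 0.000888 by edgeR) and did not pass at 3 d (-0.20 ± 0.13, adjusted p = 0.277).

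Ndufv2, an iron-sulfur subunit of the NADH-oxidising tip (chromosome 17, 66078638 to 66101559), read 287, 258, 242, 349 and 354 CPM in vehicle. It read 175, 204, 234, 249 and 218 CPM at 18 h and 171, 155, 120.3 and 189 CPM at 3 d, and only the 3 d libraries lay wholly below vehicle. The log2 fold changes were -0.46 ± 0.15 (adjusted p = 0.0225 by edgeR) and -0.91 ± 0.17 (adjusted p = 0.000525). Ndufs8, a ferredoxin-like subunit, fell at 18 h (-0.49 ± 0.14). The subunits beside Ndufv2 in the electron path, Ndufv1 (the flavin carrier) and Ndufs1 (the largest core subunit), did not pass at either time (-0.13 ± 0.13 and 0.11 ± 0.21 at 18 h; 0.19 ± 0.14 and 0.33 ± 0.23 at 3 d), and neither did Ndufs3.

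The accessory subunits of complex I, which surround the core, had 10 of 27 genes lower at 18 h (37.0%) and 4 at 3 d (14.8%, near the 13.8% of all genes). Ndufv3, attached to the NADH-oxidising tip, fell from 597 ± 82.3 CPM to 364 ± 59.7 CPM at 18 h and 379 ± 41.2 CPM at 3 d, with no overlap between vehicle and either group (adjusted p = 0.00083 and 0.00433 by edgeR). Ndufa5 had the largest complex I fall at 18 h (-0.79 ± 0.19, adjusted p = 0.00327) and stood near vehicle at 3 d (-0.11 ± 0.20). Ndufa13, also known as GRIM-19, did not pass (1019 ± 128 CPM in vehicle, 811 ± 175 at 18 h and 850.1 ± 110.0 at 3 d). Ndufa8 and Ndufa10 were lower at both times (-0.47 and -0.48 at 18 h; -0.66 and -0.48 at 3 d). The 18 h call of Ndufa8 was lost in 14 of 27 alternative fits and the 3 d call of Ndufa10 in 6.

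A pair of accessory subunits rose. Ndufab1, the mitochondrial acyl carrier protein, which also serves fatty acid and iron-sulfur cluster synthesis (chromosome 7, 122085403 to 122101886), read 23.9, 45.6, 91.5, 29.8 and 36.2 CPM in vehicle. It read 126, 154, 79.5, 106 and 92.7 CPM at 18 h and 114, 127, 125 and 86.1 CPM at 3 d. Vehicle replicate 3 lay among the dexamethasone libraries and the other vehicle libraries below them all. Ndufab1 rose by 1.28 ± 0.29 and 1.31 ± 0.31 (adjusted p = 0.00293 and 0.00534 by edgeR), and leaving out vehicle replicate 3 gave larger rises (1.75 ± 0.22, adjusted p = 4.84e-06 at 18 h; 1.77 ± 0.23, adjusted p = 1.03e-05 at 3 d). It has 2 near-identical copies among other annotated genes. Ndufb4 (chromosome 16, 37647170 to 37654453) had 11.7, 13.3, 37.6, 16.6 and 13.9 CPM in vehicle and 44.3, 121, 23.6, 28.8 and 19.2 CPM at 18 h. Its 3 d libraries, at 67.1, 51.2, 72.0 and 40.6 CPM, were all above vehicle. Ndufb4 rose at 3 d (1.59 ± 0.51, adjusted p = 0.0354) and missed the threshold at 18 h (1.27 ± 0.50, adjusted p = 0.0617), where replicate 2 was far above the rest. At 18 h it was called higher in 10 of 27 alternative fits, among them the fit without vehicle replicate 3 (1.73 ± 0.52, adjusted p = 0.0177), its highest vehicle library. Its 3 d call was lost in 7 of 27 alternative fits.

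**Figure D3:**
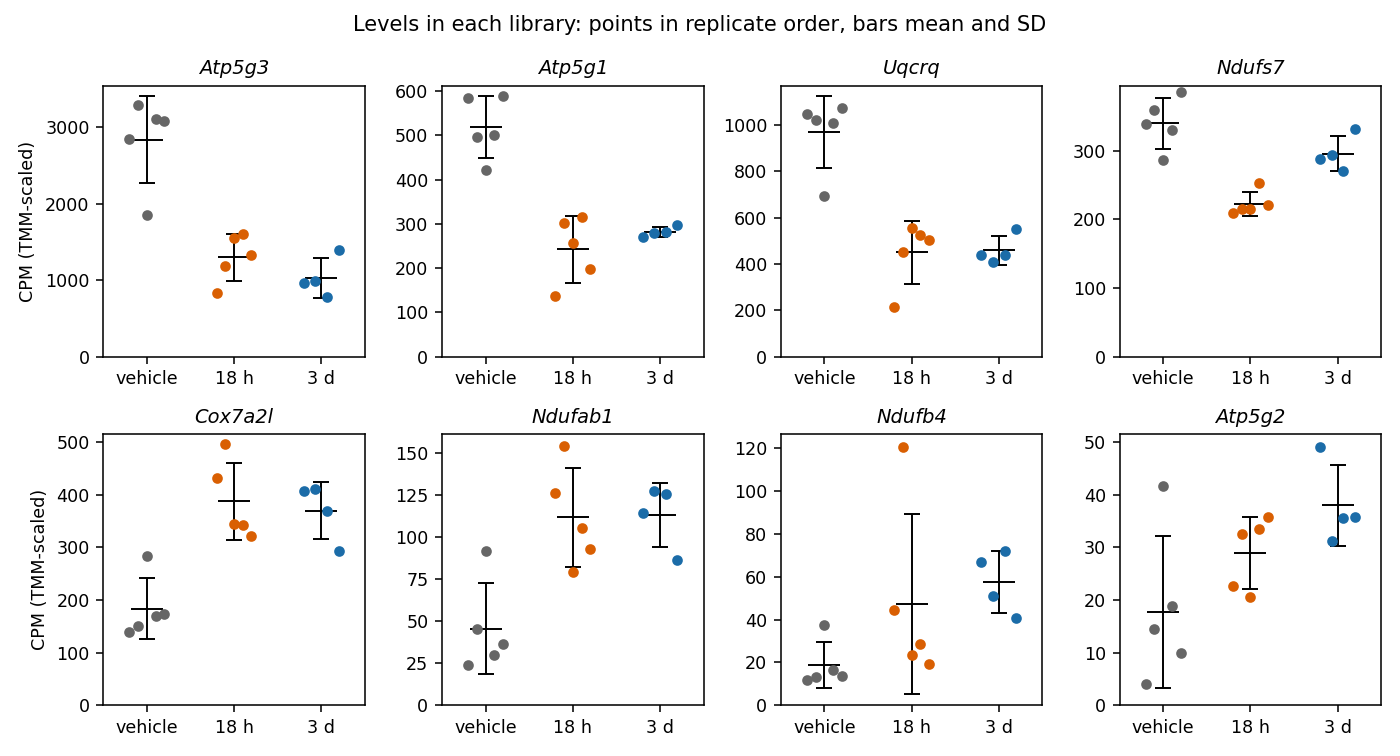
CPM of 8 members in each library (points, in replicate order within vehicle, 18 h and 3 d), with the group mean and SD; y axes start at 0. Atp5g3, Atp5g1 and Uqcrq separate both dexamethasone groups from vehicle, Ndufs7 separates the 18 h group, and in Cox7a2l, Ndufab1, Ndufb4 and Atp5g2 the vehicle replicate 3 is the highest vehicle point.

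Assembly factors of complex I among the members behaved unevenly. Ndufaf1, which works in the membrane arm (chromosome 2, 119655446 to 119662827), read 31.0, 35.6, 23.9, 39.7 and 31.6 CPM in vehicle. It read 12.5, 21.4, 18.4, 26.9 and 20.6 CPM at 18 h and 18.6, 5.69, 11.01 and 16.5 CPM at 3 d, when all libraries were below vehicle. Its changes were -0.67 ± 0.25 (adjusted p = 0.045 by edgeR, a call lost in 14 of 27 alternative fits) and -1.27 ± 0.29 (adjusted p = 0.00291). Atp5sl rose at 3 d, from 53.2 ± 15.6 to 85.0 ± 19.0 CPM (adjusted p = 0.0174 by edgeR). Ndufaf2, Ndufaf3, Ndufaf6 and Ndufaf7 were not called (18 h log2 fold changes -0.52, -0.32, -0.25 and -0.69).

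The direct comparison of 3 d with 18 h called 2 members higher and 0 lower, against 4.78% higher and 6.91% lower over all genes tested. Its contrast leaves out the vehicle libraries, which still enter the estimate of the spread. With only the 2 groups fitted, 0 members were called higher. At an unadjusted p below 0.05, 1 member was lower by edgeR, and DESeq2 called 0 lower. The median log2 difference was 0.07 over the members and -0.01 over all genes. Ndufa5, which read 25.9, 56.5, 58.9, 43.9 and 62.5 CPM at 18 h and 82.4, 62.6, 91.5 and 81.3 CPM at 3 d, was higher by 0.68 ± 0.20 (adjusted p = 0.0308 by edgeR). Ndufs7 was higher by 0.41 ± 0.13 (adjusted p = 0.0489). Both had groups that did not overlap. Without the 18 h replicate 1 neither was called (0.53 ± 0.17, adjusted p = 0.0511 for Ndufa5; 0.38 ± 0.14, adjusted p = 0.0719 for Ndufs7), 2 other members, Ndufv2 and Uqcrh, were called lower and the median difference was -0.03. Leaving out 3 d replicate 1, 3 or 4 also left 0 called higher, and most other single libraries left 1. Total count scaling called 680 of all genes lower and 290 higher, against 550 and 381. Vehicle cells of 18 h were not analysed here, so time since dexamethasone and any difference in handling cannot be told apart.

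**Figure D4:**
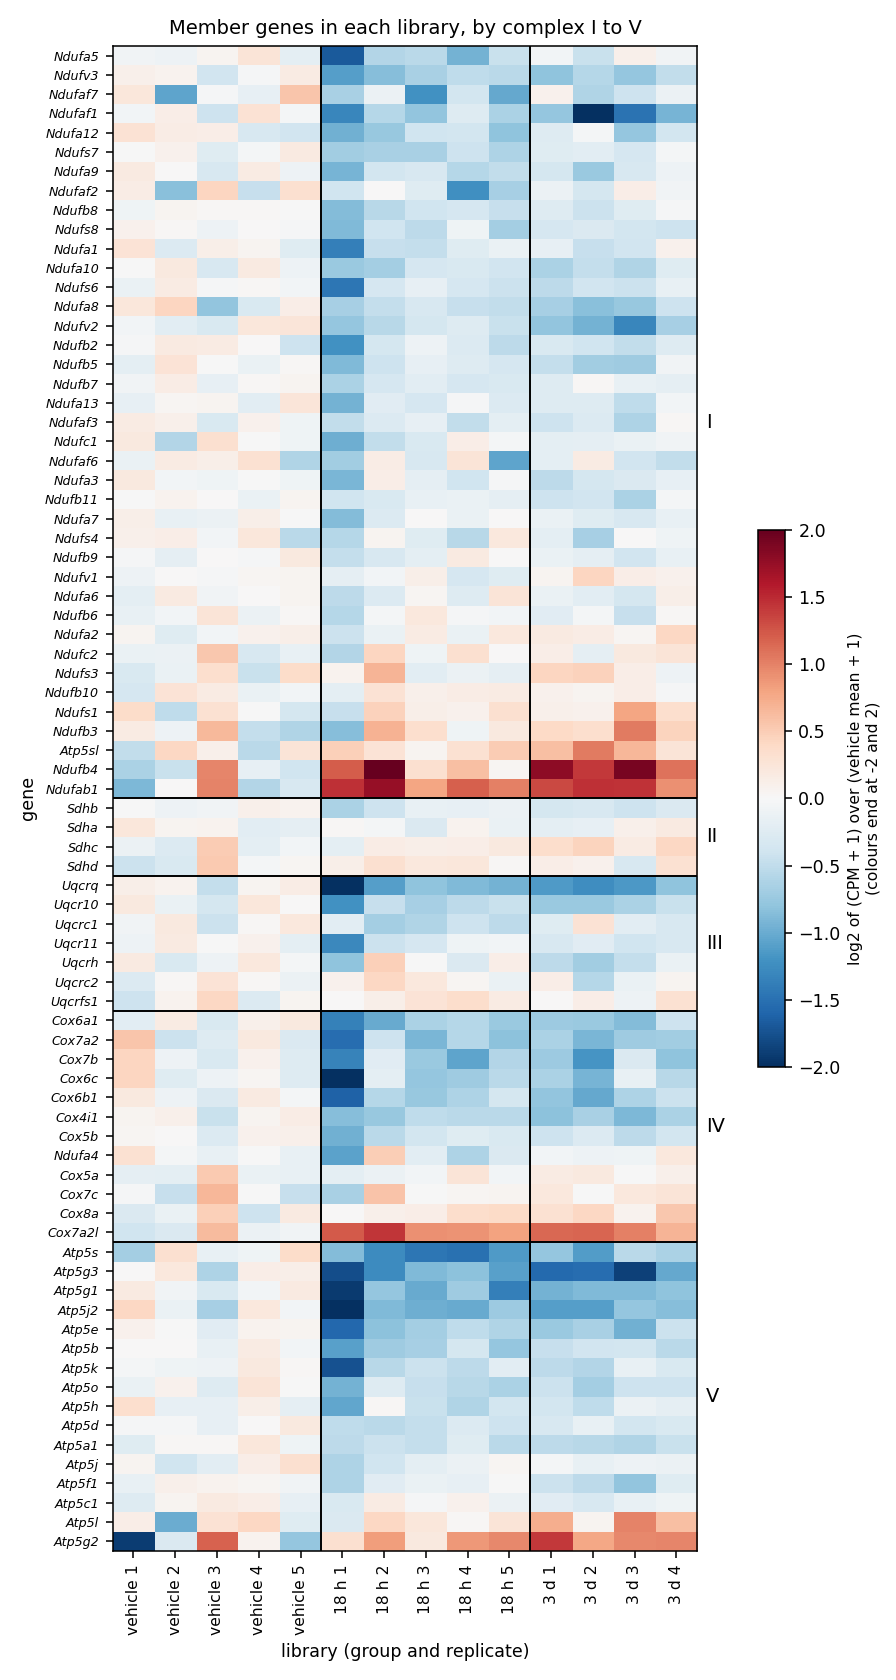
The 78 rows are the 79 tested members less 1 that is not shown, grouped by complex I to V and ordered by the 18 h log2 fold change, and each column is 1 library; colour gives the log2 of (CPM + 1) over (vehicle mean + 1). The 18 h replicate 1 has the lowest value of its group for 62 of 79 members, Ndufab1, Ndufb4, Cox7a2l and Atp5g2 are red in the dexamethasone libraries, and vehicle replicate 3 is red in the same rows.

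The members were shorter than most genes. Their longest coding transcript had a median of 983 bases, against 2803 bases over all genes tested, with a GC content of 50.3% against 51.3%. Near-identical copies, sequences of at least 95% identity over 100 bases in the last 300 bases of the transcript, were sought in annotated transcripts of other genes. They were found for 26 of 81 members, and exons of 26 overlapped another gene on the opposite strand. No source used here says whether counting was stranded, so reads of such pairs cannot be told apart.

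Genes that build, feed or couple the chain were counted in lists of their own. Of 32 tested assembly factors outside the symbol rule, 8 were lower and 2 higher at 18 h, and 5 lower and 1 higher at 3 d (median log2 fold changes -0.28 and -0.15). The shares lower were 25% and 15.6%, against 17.3% and 13.8% of all genes, so that the 3 d share was near the background. Sdhaf1, an assembly factor for the iron-sulfur subunit of complex II, rose from 77.9 ± 5.46 CPM to 175 ± 18.8 CPM at 18 h and 189 ± 57.4 CPM at 3 d (adjusted p = 1.52e-05 and 1.76e-05 by edgeR). Uqcc2, for complex III, fell at 18 h (-0.93 ± 0.19), Tmem126a, for complex I, at both times (-0.84 ± 0.18 at 18 h; adjusted p = 0.00114 at 3 d by edgeR), and Cox19, for the copper centre of complex IV, at 3 d (-1.04 ± 0.19). Between the times, Cox19 was lower (-0.76 ± 0.19) and Cox20 higher (0.52 ± 0.14) at 3 d.

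Atpif1, which encodes the inhibitor of ATP hydrolysis by complex V, fell from 176 ± 11.2 CPM to 100.3 ± 31.9 CPM at 18 h and 71.6 ± 10.0 CPM at 3 d (adjusted p = 0.00218 and 0.000123 by edgeR). Of 3 tested ATP synthase genes outside the symbol rule, edgeR called no other, and DESeq2 called 1 higher at 3 d. Of 7 tested adenine nucleotide, phosphate and outer membrane carriers, 0 were higher by edgeR (1 at an unadjusted p below 0.05 at 3 d and 0 by DESeq2). Over all genes, 17.0% and 12.1% were higher. At each time 3 carriers were lower (42.9%), against 17.3% of all genes at 18 h and 13.8% at 3 d. They were the outer membrane channel genes Vdac1 (-1.11 ± 0.26 and -1.27 ± 0.28) and Vdac3 (-0.93 ± 0.20 and -0.92 ± 0.22), and the inner membrane carrier Ucp2, which fell from 2532 ± 668 CPM to 1610 ± 365 CPM and 1119 ± 282 CPM.

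Of 15 tested tricarboxylic acid cycle genes, 4 were lower at 18 h and 2 at 3 d, with 0 higher by edgeR (1 at an unadjusted p below 0.05 at 18 h and 0 by DESeq2). The shares lower were 26.7% and 13.3%, and the 3 d share was near the 13.8% of all genes. Idh3g, a regulatory subunit of NAD-dependent isocitrate dehydrogenase, fell at both times (-0.82 ± 0.16 and -0.74 ± 0.17), as did Cs, citrate synthase (-0.49 ± 0.13 and -0.53 ± 0.14). Idh3a was higher at 3 d than at 18 h (0.66 ± 0.18). Of 12 tested electron carriers and their enzymes, 3 were lower and 1 higher at 18 h. None was called at 3 d by edgeR (1 lower and 2 higher at an unadjusted p below 0.05, and 1 higher by DESeq2). The shares lower were 25% at 18 h and 0% at 3 d, against 17.3% and 13.8% of all genes. Coq5, of ubiquinone synthesis, fell at 18 h (-0.72 ± 0.20) and was higher at 3 d than at 18 h (0.70 ± 0.21), and so was Etfb, of the electron transfer flavoprotein (-0.45 ± 0.15 and 0.53 ± 0.16).

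Of 16 tested nuclear regulators of mitochondrial genes, 3 were lower and 4 higher at 18 h, and 1 was lower and 1 higher at 3 d. The share lower was 18.8% at 18 h, near the 17.3% of all genes, and 6.25% at 3 d, under the 13.8% of all genes. Polrmt, the mitochondrial RNA polymerase, fell at both times (-0.69 ± 0.18 and -0.56 ± 0.19). Polg, the mitochondrial DNA polymerase, rose at 18 h (0.71 ± 0.19). Tfb1m, a mitochondrial ribosomal RNA methyltransferase, fell at 18 h from 7.59 ± 1.96 to 2.83 ± 1.38 CPM and was at 9.10 ± 1.66 CPM at 3 d. Gabpa, the DNA-binding subunit of an ETS family factor of respiratory genes, was higher at 3 d (1.35 ± 0.37, adjusted p = 0.0112 by edgeR) and at 18 h (1.05 ± 0.35, adjusted p = 0.0267), and its exons overlap Atp5j. Yy1 and Gabpb1 were lower at 3 d than at 18 h (-0.99 ± 0.28 and -0.71 ± 0.23). The 13 mitochondrially encoded subunits were not analysed here.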

How the data were processed

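The deposited table holds raw counts per gene for 14 libraries, which the authors made. The submitters' processing notes name STAR 2.5.2b and HTSeq, beside bcl2fastq, cutadapt, DESeq2 and the mm10 build, and do not give the handling of UMIs or strand. Dividing those counts by 1 factor per library yields the deposited normalized signal. The deposited log2 columns carry transformed values and fold changes, and the deposited p-value columns come from the authors' comparisons; only raw counts were used here. Of 10320 rows, 17 whose symbols had become dates were left out (0.102% to 0.147% of counts), and each row reached at least 6 counts in some library. Totals had a median of 1424351 counts.

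Counts were scaled by TMM, filtered by filterByExpr and fitted with edgeR 4.0.16 (R 4.3.3) in 1 robust quasi-likelihood model over all 14 libraries, with Benjamini-Hochberg adjustment over 7965 genes. DESeq2 1.42.0 and limma 3.58.1 served for alternatives, and the fits were tested on simulated data. Replicates differed beyond counting noise (chi-square per degree of freedom 3.28 to 14.6). The members, lists and rule for named genes were chosen with earlier results of these data known. The rule took the called members with the smallest adjusted p, extremes of each complex and a fixed set, 37 in all; members named beyond it were chosen after their values were seen. Promoters and their sequences are from RefSeq (GRCm38.p6). In all, 27 alternative fits were made. Some single genes are not reported here, although the counts include them.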

Additional observations from a re-analysis of the deposited data

Results flagged for a closer look

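In 129 groups of 4 or 5 libraries checked for a single library far from the others, 23 were set apart; chance alone gives about 5% of groups. Vehicle replicate 3 accounts for many of them. It was high for Ndufb4 (37.63 CPM, the other vehicle libraries 11.67 to 16.56), Sdhc (265.4 against 155.6 to 179.6), Cox5a (686.5 against 414.5 to 432.8) and Cox7a2l (283.7 against 138.5 to 173.5). It was low for Uqcrq (694.6 against 1008 to 1072), Cox4i1 (1318 against 1861 to 1991) and Cox5b (741.9 against 903.5 to 966.7). Its summed CPM was 29440 over all members (others 32560 to 33330) and 9015 over complex V (others 11150 to 11850). Vehicle replicate 1 was high for Ndufa4, at 82.21 CPM against 59.36 to 65.69.

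The 18 h replicate 1 was low in its summed CPM, at 17420 over all members (others 24260 to 25660), 6310 over complex I (8653 to 8980), 1384 over complex III (2144 to 2256), 4290 over complex IV (5726 to 6133) and 4791 over complex V (6875 to 7641). It was also low for Sdhc, at 163.0 CPM against 203.1 to 213.6. The 18 h replicate 2 was high for Ndufb4 (120.7 against 19.23 to 44.31). The 18 h replicate 4 was high for Ndufs7 (253.6 against 209.0 to 220.4) and Cox5a (572.4 against 415.6 to 457.7).

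At 3 d, replicate 2 was high for Uqcrc1 (282.6 against 185.3 to 199.9). Replicate 4 was high for Ndufa4 (77.14 against 61.64 to 63.78), for complex III (2191 against 1862 to 1883) and for complex V (7472 against 6454 to 6607). Ndufs7 and Ndufa5 were called higher at 3 d than at 18 h (log2 differences 0.4071 and 0.6824, adjusted p = 0.0489 and 0.0308 by edgeR). The Ndufs7 call was lost in 20 of 27 alternative fits and the Ndufa5 call in 8.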

How the results depend on the processing

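Depth, and the 4 or 5 libraries of a group, limit what small changes of single genes can show. The member median stayed below 0 against vehicle in all 27 alternative fits. Of the calls, 20 of 37 at 18 h, 14 of 25 at 3 d and 0 of 2 between the times were kept in all of them. Changes of sign were counted among the 37 members named by the rule, and for 3 d against 18 h only where called. None of their 38 called values reversed. Of their 74 gene and comparison pairs, 11, all uncalled, changed sign somewhere. The cause was not tested.

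At 18 h, total count scaling gave 22 lower. Members called higher were 4 with quality weights, 4 with vehicle replicate 3 and 18 h replicates 2 and 3 left out (chosen after seeing the data), 6 with the GC and length trend removed and 1 among structural subunits. At 3 d, higher members were 9, 9, 9 and 2 in the same order, quality weights gave 32 lower, and the trend removal gave a median of -0.096. For 3 d against 18 h, higher members were 1 with RLE factors, 0 with total counts, 1 without a filter, 0 with only the 2 groups, and 1 without 18 h replicates 2 and 3; total counts gave 1 lower and a median of -0.001.

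Leaving out each replicate gave 28 to 36 lower and 2 to 4 higher at 18 h (median -0.417 to -0.276), 15 to 27 and 2 to 9 at 3 d (-0.310 to -0.209), and 0 to 2 lower and 0 to 2 higher between the times (-0.027 to 0.129). Over these fits Cox5a at 18 h ranged from -0.106 to 0.145, and at 3 d Ndufa4 from -0.083 to 0.093, Ndufaf2 from -0.245 to 0.024, Sdha from -0.083 to 0.051 and Sdhd from -0.030 to 0.242.

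With a replicate block 31 members were lower and 2 higher at 18 h, 17 and 4 at 3 d, and 1 was higher at 3 d against 18 h (0 with the description numbers). Complex V then had 5 lower at 3 d. The labels do not say that replicate numbers pair the samples. Same-number correlations were -0.207 to 0.151, and those of different numbers reached 0.208, so they neither show nor exclude a pairing.

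Log2 values that changed sign among the members named by the rule were as follows. With total counts, Cox5a 0.108, Ndufv1 0.016 and Sdha 0.075 at 18 h, and Sdha 0.055 at 3 d. With the trend removed, Cox5a 0.210, Ndufs1 -0.028 and Ndufv1 0.009 at 18 h, and Ndufa5 0.079, Ndufaf2 0.120, Ndufs7 0.042 and Uqcrc1 0.030 at 3 d. With quality weights, Cox5a 0.069 at 18 h, and Ndufa4 -0.009 and Ndufaf2 0.046 at 3 d. Without 18 h replicates 2 and 3, Cox5a 0.020, and without vehicle replicate 3 as well, Cox5a 0.190 and Sdha 0.012 at 18 h, and Ndufa4 -0.039, Ndufaf2 0.024 and Sdha 0.006 at 3 d. Ndufa4 at 3 d was also -0.002 by DESeq2, -0.002 with RLE factors, -0.007 without a filter, -0.001 at a mean of at least 20 CPM and -0.023 with the replicate block.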
